A study of Mus musculus with 69 samples.

Results

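Lungs of mice were compared 28 days after instillation of a positively charged, surface-modified titanium dioxide nanoparticle (NRCWE 002) or of an uncharged, unmodified one (NRCWE 001). All arrays of day 28 labelled with either particle were used, 15 per particle and 30 of the 69 arrays in the series. The mice were female C57BL/6, 5 to 7 weeks old on arrival and acclimatised for 1 to 3 weeks, and each received a single intratracheal dose of 18, 54 or 162 µg, with 5 mice per particle and dose. The 4 vehicle mice of day 28 received the dispersion medium, 2% serum in water, without particles, and served as the background. RNA came from a small frozen piece of each lung. Each array held the lung RNA of 1 mouse in the Cy5 channel against a commercial pooled mouse reference RNA in the Cy3 channel. The values are log2 ratios of lung over reference, and a difference is NRCWE 002 minus NRCWE 001 on that log2 scale, with dose as a term in the model unless a dose is named.

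Titanium dioxide is poorly soluble, and particles that reach the alveoli stay in the lung for weeks, taken up mainly by alveolar macrophages. Surface charge is known to change how particles bind proteins and how cells take them up. Lung tissue answers inhaled particles with chemokines, which recruit leukocytes, and with acute phase proteins such as the serum amyloids. Immediate early, glucocorticoid-induced and clock genes answer fast to growth signals, stress hormones and time of day in most tissues.

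The arrays were made on glass slides that hold 4 arrays each, and slide and particle were largely aligned. The 30 arrays lay on 11 slides. Of these, 4 slides held NRCWE 002 without NRCWE 001 and 5 held NRCWE 001 without NRCWE 002, together 22 arrays. The other slides, numbered 13 and 15 here, held both particles on 8 arrays, in 4 pairs matched for dose (18 and 54 µg on slide 13, 54 and 162 µg on slide 15). The vehicle arrays divided evenly, with replicates 1 and 4 on slides 2 and 9 beside NRCWE 002 and replicates 2 and 3 on slides 6 and 7 beside NRCWE 001, so that a difference between these vehicle arrays contains slide and mouse but no particle. In the 30 arrays 61.4 to 87.4% of sample spots were well above background (median 66.8%), with the highest shares, 86.7 to 87.4%, on slide 11, which held NRCWE 001. No spot was saturated. All 11 measured markers of lung epithelium were above background on every array, and their mean log2 ratio was 4.81 to 5.85 with NRCWE 001, 5.25 to 6.05 with NRCWE 002 and 5.35 to 5.79 with vehicle.

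The charged and the unmodified particle differed at 56 of 15755 genes (limma, Benjamini-Hochberg adjusted p below 0.05; 0.355% of the genes tested), with 15 genes higher (0.0952%) and 41 lower (0.26%) after NRCWE 002. The genes lower after the charged particle included the transcription factor genes Srf, Klf4 and Nr4a2, glucocorticoid-induced genes (Per1, Tsc22d3, Errfi1) and the sterol enzyme gene Cyp51. Klf4 and Nr4a2 stood on the immediate early list, where 9 of 21 measured genes had a difference above 0. The genes higher after the charged particle included Creb3l3, the chemokine receptor gene Ccr2 and the transcription factor gene Foxp1. The differences were small, 0.19 to 1.19 with a median of 0.32, and 2 genes were past 2-fold, Creb3l3 and 2810459M11Rik. For none of the 56 did the 15 lungs of one particle lie wholly apart from the 15 of the other, and over all genes none did. The count of 56 moved with the arrays used, from 26 to 260 when single arrays were left out, and it was 2 without slide 6 and 3 without slide 10.

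Most of these calls did not pass once slide entered the model. With slide as a random block, 1 gene was called (0.00635%), Srf, which was lower after NRCWE 002, and 974 genes had an unadjusted limma p below 0.05 (6.18%). With slide as a fixed block no gene was called, against 866 at an unadjusted limma p below 0.05 (5.5%). In that fit a slide holding 1 particle cannot separate particle from slide. Its particle difference therefore rests on the 8 arrays of the slides holding both particles. The same limit applies to later values with slide fixed and no vehicle arrays. A fit to those 8 arrays alone, which is not a separate test, called no gene, against 1136 unadjusted (7.21%), with 3 residual degrees of freedom. The 22 arrays of the single-particle slides gave 478 calls in limma (3.03%), and 50 of the 56 genes were among them. In a mouse lung, the number of cells of a type and the RNA each cell holds cannot be told apart, which applies to every gene below.

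The serum response factor gene Srf, whose product drives immediate early and contractile genes from a DNA element called the CArG box, was the gene called with slide as a random block. Its log2 ratio was 0.11 to 0.72 with NRCWE 001 (median 0.36) and -0.24 to 0.13 with NRCWE 002 (median 0.02). Vehicle lungs were at -0.06, 0.09, -0.03 and 0.01. All 15 lungs given NRCWE 001 were above all 4 vehicle lungs, as they were for 5 genes in all (0.0317%), whereas the NRCWE 002 range took in the vehicle values, and 14 of the 15 NRCWE 002 lungs were below every NRCWE 001 lung. The Srf difference was -0.37 ± 0.05 (SE, 95% interval -0.48 to -0.27, limma adjusted p = 0.0006) and remained at -0.36 ± 0.06 with slide as a random block (limma adjusted p = 0.00866). Within slides the 4 matched pairs gave -0.46, -0.32, -0.32 and -0.33, and the difference over those 8 arrays was -0.36 ± 0.07 (limma adjusted p = 0.517 over all genes). The vehicle lungs on the slides of NRCWE 002 differed from those on the slides of NRCWE 001 by -0.05, well under the particle difference. With slide or scan day as a fixed block, or scan day as a random block, Srf did not pass.

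Klf4 encodes a zinc finger transcription factor of epithelium and endothelium, and it was lower in the charged group, with the largest of the 3 dose values at 54 µg. Over all doses it was 2.23 to 2.95 with NRCWE 001 (median 2.73) and 0.99 to 3.08 with NRCWE 002 (median 1.92), a difference of -0.73 ± 0.14 (limma adjusted p = 0.0256). At 54 µg the 5 lungs given NRCWE 001 were at 2.82, 2.75, 2.76, 2.44 and 2.76, and the 5 given NRCWE 002 were at 1.23, 1.39, 0.99, 1.29 and 1.39. These groups of 5 lay far apart, and Klf4 was the gene called at that dose, with a difference of -1.45 (95% interval -1.84 to -1.05, limma adjusted p = 0.000714) and -1.47 with slide as a random block (limma adjusted p = 0.000561). With slide fixed it was -1.49 and did not pass (limma adjusted p = 0.185). At 18 and 162 µg the Klf4 differences were -0.29 and -0.46 and did not pass, and the change with dose did not pass either (limma adjusted p = 0.645, and 0.0944 with slide as a random block). The vehicle lungs spread from 1.36 to 3.07 (1.66, 1.36, 3.07 and 1.79), which spans both particles, so Klf4 placed neither particle apart from vehicle over all doses. Vehicle lungs on the slides of NRCWE 002 were lower than those on the slides of NRCWE 001 by -0.49, in the direction of the particle difference. That vehicle difference was -1.34 without replicate 2 and 0.37 without replicate 3.

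The orphan nuclear receptor gene Nr4a2, a fast-induced immediate early gene, was 0.03 to 1.28 with NRCWE 001 (median 0.52) and -0.44 to 0.55 with NRCWE 002 (median -0.02). Its difference was -0.56 ± 0.09 (limma adjusted p = 0.00861), and it was -0.61 with slide as a random block, which did not pass (limma adjusted p = 0.163). All 4 matched pairs were lower with NRCWE 002, by -0.32, -0.38, -0.52 and -1.42. The vehicle lungs were at -0.81 and -0.47 on the slides of NRCWE 002 and at -0.16 and 0.70 on those of NRCWE 001, a difference of -0.91 in the same direction. It rested in part on vehicle replicate 3 (0.70), without which it was -0.48, and without replicate 2 it was -1.34. Without slide 4, and with slide as a random block, Nr4a2 was among 6 genes called (0.0381%), all lower after NRCWE 002, with Srf, Per1, Dnajb1, Sertad1 and Tmem119.

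The 3 called glucocorticoid-induced genes, of 15 measured on that list, were lower with the charged than with the unmodified particle. Mean Tsc22d3 was 1.46 with NRCWE 002, 1.47 with vehicle and 2.14 with NRCWE 001. In the same order the means were 0.17, -0.03 and 0.79 for Per1 and 0.10, 0.36 and 0.78 for Errfi1. Per1, a repressor of the circadian clock that corticosteroids also induce, was 0.20 to 1.67 with NRCWE 001 (median 0.63) and -0.67 to 1.07 with NRCWE 002 (median 0.12), a difference of -0.62 ± 0.13 (limma adjusted p = 0.0312). Its matched pairs were -0.75, -1.21, -0.65 and -0.74, all lower with NRCWE 002. The vehicle lungs of Per1 were at -0.29, -0.34, 1.41 and -0.89, so the slide sets differed by -1.12 among mice given no particle. Tsc22d3, which encodes the glucocorticoid-induced leucine zipper, had medians of 2.10 and 1.40 and a difference of -0.68 ± 0.14 (limma adjusted p = 0.0274), with pairs of -1.12, -1.14, -0.74 and -0.06 and a vehicle difference of -0.88. Errfi1, an inhibitor of the epidermal growth factor receptor, had medians of 0.83 and 0.01 and a difference of -0.69 ± 0.15 (limma adjusted p = 0.0274). Its pairs were 0.08, -1.07, -0.41 and -0.63, and its vehicle difference was -1.25. The vehicle differences of these genes rested in part on replicate 3 on slide 7, the highest vehicle lung for each. Without it they were -0.25 for Per1, -0.48 for Tsc22d3 and -0.48 for Errfi1, smaller than the particle differences. Without replicate 2 they were -1.996, -1.283 and -2.009 in the same order, larger than the particle differences. They were also larger when either of the other vehicle lungs was left out. With slide as a random block none of the 3 genes passed. Over the whole glucocorticoid list 5 of 15 genes had an unadjusted limma p below 0.05 and were lower and none was higher, against 11.3% lower over all genes, and the median difference was -0.06 for the particles and -0.31 for the vehicle slide sets (-0.62 to -0.09 leaving out each vehicle lung in turn).

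**Figure D1:**
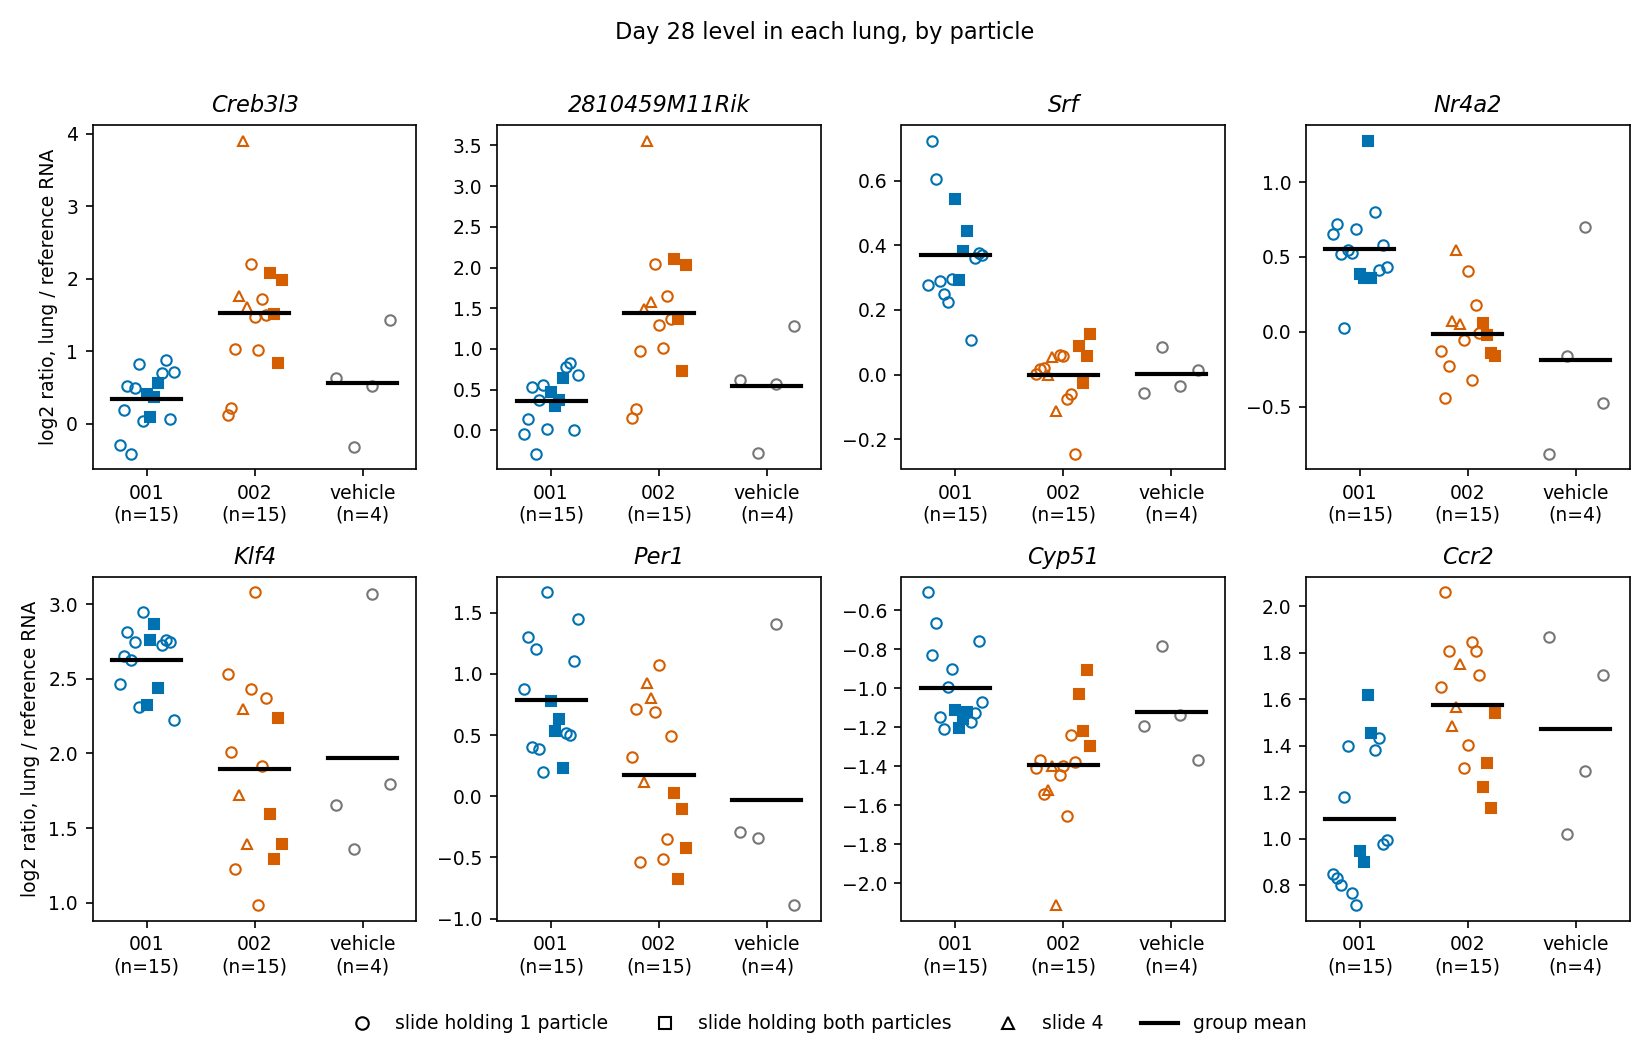
Log2 ratio of lung over reference RNA (y axis) for 8 genes in each of the 15 NRCWE 001, 15 NRCWE 002 and 4 vehicle lungs of day 28; black bars are group means, filled squares are arrays on slides holding both particles and triangles are arrays of slide 4. Srf of the NRCWE 001 lungs lies above all 4 vehicle lungs, while for Klf4, Per1 and Nr4a2 the vehicle lungs spread over both particles.

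Promoters of the called genes were searched for DNA elements of the serum response, cyclic AMP, clock and glucocorticoid factors. The clock list held 1 called gene, Per1, which was also on the glucocorticoid list, and no list covered cyclic AMP targets. A shared regulator of the called genes was not tested. RefSeq promoters (GRCm38.p6, 300 bases around each start) were held for 45 of the 56 called genes, in 62 windows. On either strand, the CArG box was in 2 of the 62 (3.23%, against 1.63% of all 32851 promoters and 1.42% of those of tested genes), the cyclic AMP element TGACGTCA in 3 (4.84%, against 1.79% of all and 2.68% of those of tested genes), and the E-box CACGTG, bound by the clock activators, in 13 (21%, against 7.15% of all and 9.06% of those of tested genes). The palindromic glucocorticoid element was in none of them, and in 0.00913% of all. The 13 windows with an E-box belonged to 12 genes, since windows of neighbouring starts of Hcfc2 share the same E-box. Of all 62 windows 77.4% belonged to genes lower after NRCWE 002, and 12 of these 13 did. In the promoter of Creb5 the letters of the E-box and of the cyclic AMP element overlap. The 250 bases before the start are printed for 4 genes lower after NRCWE 002 than after NRCWE 001. They show these elements in place, with each element in capitals.
Srf (chr17:46556163-46556412, minus strand, 2 CArG boxes): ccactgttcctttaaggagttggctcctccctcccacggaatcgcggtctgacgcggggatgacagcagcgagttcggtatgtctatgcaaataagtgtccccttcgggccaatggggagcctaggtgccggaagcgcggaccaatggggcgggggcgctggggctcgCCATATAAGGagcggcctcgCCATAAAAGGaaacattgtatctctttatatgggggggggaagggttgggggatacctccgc
Per1 (chr11:69098699-69098948, plus strand, E-box): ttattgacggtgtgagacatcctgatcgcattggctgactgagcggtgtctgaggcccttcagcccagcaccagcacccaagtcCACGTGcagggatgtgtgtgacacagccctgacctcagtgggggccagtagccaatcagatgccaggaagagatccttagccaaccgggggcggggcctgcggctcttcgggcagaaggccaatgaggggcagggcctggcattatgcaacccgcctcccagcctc
Klf4 (chr4:55532476-55532725, minus strand, E-box): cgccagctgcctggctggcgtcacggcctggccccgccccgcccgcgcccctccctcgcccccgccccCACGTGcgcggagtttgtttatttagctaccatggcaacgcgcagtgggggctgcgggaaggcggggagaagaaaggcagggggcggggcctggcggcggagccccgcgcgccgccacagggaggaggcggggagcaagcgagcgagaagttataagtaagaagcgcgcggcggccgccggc
Errfi1 (chr4:150854820-150855069, plus strand, cyclic AMP element): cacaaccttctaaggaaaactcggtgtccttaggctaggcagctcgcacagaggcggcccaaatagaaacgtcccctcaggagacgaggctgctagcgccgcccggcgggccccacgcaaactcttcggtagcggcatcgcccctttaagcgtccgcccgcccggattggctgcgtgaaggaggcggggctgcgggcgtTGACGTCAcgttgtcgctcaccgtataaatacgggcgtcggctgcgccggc

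Creb3l3 and 2810459M11Rik showed the largest differences and kept their size within slides. Creb3l3 encodes a membrane-bound transcription factor known from liver and intestine, where it acts in fasting and lipid metabolism, and it stood on the list of PPAR alpha and fasting genes as its called member. Creb3l3 was -0.41 to 0.88 with NRCWE 001 (median 0.41) and 0.13 to 3.90 with NRCWE 002 (median 1.51), and 12 of the 15 NRCWE 002 lungs were above every NRCWE 001 lung. Its difference was 1.19 ± 0.25 (95% interval 0.68 to 1.70, limma adjusted p = 0.0274), and the 4 matched pairs were 1.67, 1.42, 1.43 and 0.48, all higher with NRCWE 002. The fit with slide as a random block gave 1.22 and did not pass (limma adjusted p = 0.247). The vehicle lungs were at 0.64, -0.31, 0.53 and 1.42, so that the slide sets differed by 0.92 in the same direction without particle. That vehicle difference was 0.50 without replicate 2, 0.53 without replicate 4, 1.32 without replicate 1 and 1.35 without replicate 3.

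The probe of 2810459M11Rik followed the same course as that of Creb3l3 from lung to lung. Each gene was measured by 1 probe, and whether these probes bind a common transcript was not tested, so they may not be 2 separate measurements. The level of 2810459M11Rik ranged from -0.28 to 0.83 with NRCWE 001 (median 0.37) and from 0.15 to 3.56 with NRCWE 002 (median 1.37). Its difference was 1.08 ± 0.23 (limma adjusted p = 0.0274), its pairs were 1.64, 1.07, 1.39 and 0.36, and its vehicle lungs were at 0.62, -0.28, 0.57 and 1.28. Without slide 4, which held the highest lung of 2810459M11Rik, the difference was 0.89 (limma adjusted p = 0.0434), and that of Creb3l3 was 0.97 (limma adjusted p = 0.0434). The related leucine zipper gene Creb5 went the other way, with a difference of -0.56 ± 0.12 (limma adjusted p = 0.0312), but its difference within slides was -0.30 and its vehicle difference was 0.18.

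Among the 15 higher genes were the immune genes Ccr2 and Rgs18, whose differences lay near 0 within slides. Ccr2, the receptor through which CCL2 draws monocytes into tissue, was 0.71 to 1.62 with NRCWE 001 (median 0.98) and 1.13 to 2.06 with NRCWE 002 (median 1.57), a difference of 0.49 ± 0.10 (limma adjusted p = 0.0256). Its matched pairs were 0.27, 0.43, 0.08 and -0.49, which lie on both sides of 0, with a difference of 0.08 within slides. The vehicle lungs were at 1.87 and 1.70 on the slides of NRCWE 002 and at 1.02 and 1.29 on those of NRCWE 001, and these did not overlap. The 2 probes of Ccr2 gave 0.75 and 0.23. Rgs18, a regulator of G protein signalling in platelets and leukocytes, was 0.42 higher, with 0.07 within slides and 0.59 between the vehicle slide sets. Foxp1, a forkhead factor of lung and lymphocytes, kept more of its difference, 0.43 ± 0.07 over all arrays (limma adjusted p = 0.011), 0.27 within slides and 0.10 between the vehicle slide sets.

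No B cell marker was called, although 8 of 15 measured ones had an unadjusted limma p below 0.05 and were higher with NRCWE 002, against 6.17% of all genes. Ms4a1, which encodes CD20, was -0.92 to 1.04 with NRCWE 001 (median -0.25) and -0.79 to 1.42 with NRCWE 002 (median 0.34), a difference of 0.68 (limma adjusted p = 0.113). Cd79b, a chain of the B cell receptor, differed by 0.54 (limma adjusted p = 0.118), and Mzb1, a chaperone of antibody-secreting cells, by 0.50 (limma adjusted p = 0.094). The ranges overlapped for each of them. The median difference of the B cell list was 0.36 over the 30 arrays, 0.25 within slides and 0.43 between the vehicle slide sets.

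Among the genes lower after NRCWE 002, Cyp51 and some housekeeping genes lay near 0 within slides. Cyp51, the lanosterol demethylase of cholesterol synthesis, was -1.21 to -0.51 with NRCWE 001 (median -1.11) and -2.11 to -0.91 with NRCWE 002 (median -1.40), and 13 of the 15 NRCWE 002 lungs were below every NRCWE 001 lung. Its difference was -0.40 ± 0.09 (limma adjusted p = 0.0312), but the pairs were 0.08, -0.02, -0.17 and 0.25, and the within-slide difference was 0.03. Of the 26 measured sterol and fatty acid synthesis genes 7 were lower at an unadjusted limma p below 0.05 and 1 higher over all arrays, and within slides 1 was lower and 1 higher. Of all genes 11.3% were lower and 6.17% higher over all arrays, and 3.85% lower and 3.36% higher within slides. Coq10b, which binds the respiratory coenzyme Q, differed by -0.72 ± 0.15 (limma adjusted p = 0.0274) and by -0.38 within slides, where each pair was lower (-0.40, -0.15, -0.90 and -0.09), with 88.1% of its remaining variance between slides. The nuclear pore gene Nup43, the mitochondrial import gene Tomm22 and the ribonuclease P gene Rpp40 differed by -0.41, -0.38 and -0.43 over all arrays and by 0.09, -0.05 and -0.05 within slides, where the vehicle slide sets differed by -0.77, -0.53 and -0.37. Among the genes higher after NRCWE 002, Creld2, a secreted protein of the unfolded protein response, held its difference. That difference was 0.29 over all arrays (limma adjusted p = 0.0468) and 0.25 within slides, with 0.01 between the vehicle slide sets. Neurl2, an adaptor of a ubiquitin ligase, differed by 0.45 and within slides by 0.20.

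**Figure D2:**
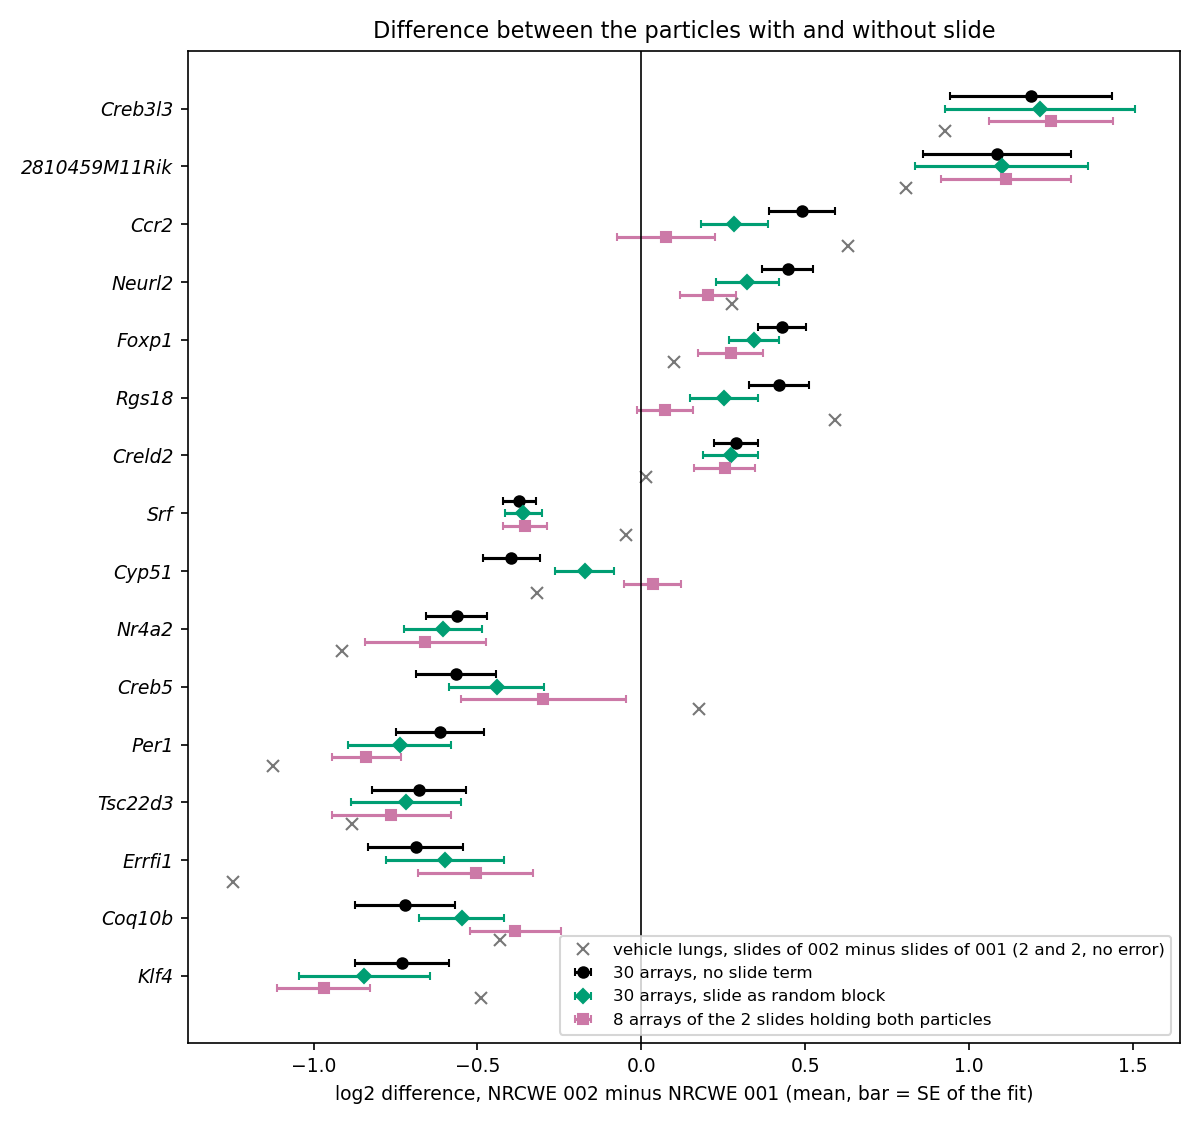
Difference of NRCWE 002 minus NRCWE 001 on the log2 scale (x axis, with standard errors) for 16 genes (y axis), fitted over 30 arrays with no slide term, with slide as a random block, and over the 8 arrays of the slides holding both particles; crosses mark the difference between vehicle lungs of the 2 sets of slides. Srf, Creb3l3 and Klf4 keep their size within slides, while Cyp51 and Ccr2 lie near 0 there.

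The 56 genes together divided in the same way. Within slides 51 of the 56 differed in the direction of the whole comparison, against 57% of all genes, and 22 did so in all 4 pairs, against 9.81% of all genes. The pairs are part of the 30 arrays that gave the calls, so these counts are a description. The 5 that turned were A230072E10Rik, Cyp51, Fastkd3, Nup43 and Vamp3. The median ratio of the within-slide difference to the difference over all arrays was 0.52. The vehicle slide sets differed in the direction of the particles for 48 of the 56 genes (60.6% of all genes), with 46 to 51 when each vehicle lung was left out in turn, and for 38 of the 56 both vehicle lungs of one set lay beyond both of the other in that direction (29.1%). Across genes the vehicle difference correlated with the particle difference at r = 0.39 over all 15755 genes, and with the within-slide difference at -0.06 (0.24 to 0.44 and -0.13 to 0.12 leaving out each vehicle lung in turn). Genes are not independent replicates and these r are descriptions.

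**Figure D3:**
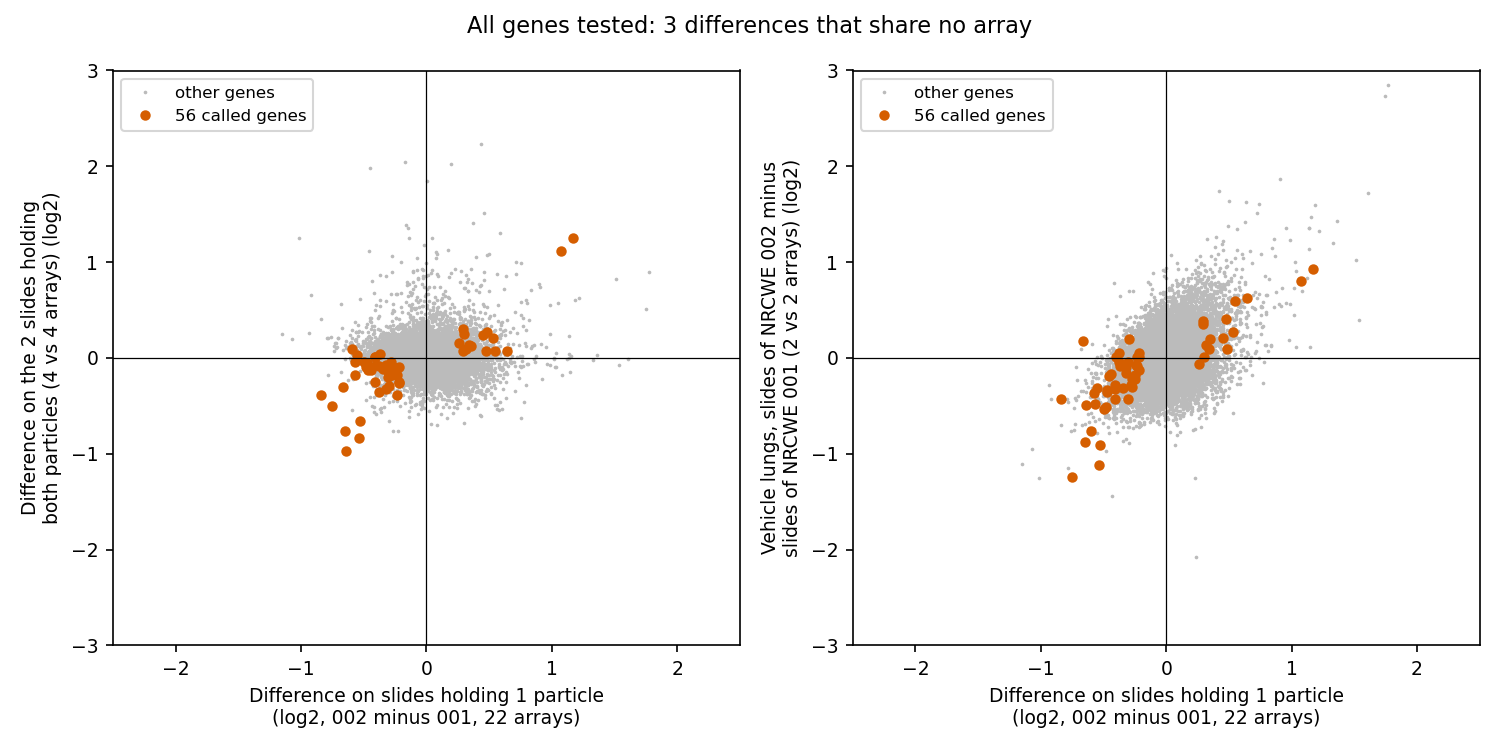
Each point is 1 of the 15755 genes; the x axis is the log2 difference of NRCWE 002 minus NRCWE 001 over the 22 arrays of single-particle slides, and the y axes are the difference over the 8 arrays of slides holding both particles and the difference between vehicle lungs on the 2 sets of slides, with the 56 called genes in orange. The correlation across genes is 0.02 with the within-slide difference and 0.43 with the vehicle difference.

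Slide took 69.3% of the sum of squares left after particle and dose, while it used 38.5% of the remaining degrees of freedom. The median gene had 73.4% of its remaining variance between slides, and the median called gene 61.0%. Part of this came from 1 slide. Slide 4 held 3 lungs given NRCWE 002, 1 at each dose, and these stood apart on the first principal component, which held 34.1% of the variance. Without slide 4 the share between slides was 58.0%, and 39 genes were called (0.248%), 23 of them among the 56. Lars2, the mitochondrial leucyl-tRNA synthetase gene, was at 6.49, 6.41 and 6.37 on slide 4 and at 1.37 to 2.04 in every lung given NRCWE 001. Its particle difference was 1.11 with slide 4 and 0.20 without it, and it was called in neither fit. Rn28s1, a ribosomal RNA gene, was 2.14 to 2.74 on slide 4 and -1.58 to 0.17 elsewhere.

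At 18 µg 10 genes were called (0.0635%), 9 of them lower after NRCWE 002 (0.0571%), among them the clock gene Per2, the inducible heat shock genes Hspa1a and Hspa1b, the membrane gene Tspan4, the endoplasmic reticulum stress gene Herpud1, the transcription factor genes Jdp2, Srf and Creb5, and the mitochondrial carrier gene Slc25a33. At 54 µg 1 gene was called (0.00635%), Klf4. At 162 µg none was called, against 795 at an unadjusted limma p below 0.05 (5.05%). With slide as a random block limma called 20 genes at 18 µg (0.127%), 6 at 54 µg (0.0381%) and again none at 162 µg, against 626 unadjusted (3.97%). With slide as a fixed block it called none at 18 µg, against 1511 unadjusted (9.59%), and 2 at 54 µg (0.0127%), Dusp6 and Id1, both lower after NRCWE 002, so the order of the doses by calls turned with the treatment of slide. All 5 lungs given NRCWE 002 were below all 5 given NRCWE 001 for 128 genes at 18 µg (0.812%), for 99 at 54 µg (0.628%) and for 83 at 162 µg (0.527%).

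Per2, a clock repressor, was at 1.03, 1.13, 0.96, 1.03 and 1.03 in the 5 lungs given 18 µg of NRCWE 001, and at 0.14, -0.32, 0.40, 0.46 and 0.32 in those given 18 µg of NRCWE 002. The groups did not overlap, and the NRCWE 001 group was above every other day 28 lung, the vehicles included (0.30, 0.06, 0.75 and 0.32). The Per2 difference was -0.84 at 18 µg (95% interval -1.07 to -0.60, limma adjusted p = 0.00136), -0.47 at 54 µg and 0.13 at 162 µg (95% interval -0.10 to 0.37). The test of whether the difference changed with dose gave a limma adjusted p of 0.0858 without slide, 0.000167 with slide as a random block and 0.013 with slide fixed. With slide fixed the Per2 difference at 18 µg was -0.71 and did not pass (limma adjusted p = 0.0658).

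Hspa1a, the inducible HSP70 chaperone gene, was at 3.11, 2.96, 3.07, 2.70 and 2.80 with 18 µg of NRCWE 001 and at 1.14, 2.02, 1.36, 1.27 and 1.60 with 18 µg of NRCWE 002. Here too the 5 NRCWE 001 lungs were above all other lungs of day 28, with vehicles at 0.80, 0.05, 1.20 and 0.75. The Hspa1a difference was -1.45 ± 0.22 (SE) at 18 µg (limma adjusted p = 0.00282), -0.63 at 54 µg and 0.34 at 162 µg (95% interval -0.11 to 0.78), and its change with dose passed with slide fixed (limma adjusted p = 0.0264) and not without slide (limma adjusted p = 0.089). With slide fixed the Hspa1a difference at 18 µg was -1.41 and did not pass (limma adjusted p = 0.0658). Spon2, a secreted matrix and innate immune protein, was the gene higher after NRCWE 002 at 18 µg. It was at -2.46, -1.93, -1.88, -2.08 and -1.96 with NRCWE 001, below every other lung of day 28, and at -0.43, 1.10, -1.16, -1.24 and -0.47 with NRCWE 002 (difference 1.62, limma adjusted p = 0.0395). With slide fixed the Spon2 difference was 1.34 and did not pass (limma adjusted p = 0.297). The 5 lungs given 18 µg of NRCWE 001 lay on 5 slides.

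The change of the difference with dose was called for no gene without slide, against 256 at an unadjusted limma p below 0.05 (1.62%), for 27 genes with slide as a random block (0.171%) and for 5 with slide fixed (0.0317%). The 5 were Per2, Hspa1a, Hspa1b, Accs and Id1, an inhibitor of basic helix-loop-helix factors. The 27 also held the heat shock gene Hsph1, Herpud1, Tspan4, Spon2 and the immediate early genes Nr4a1 and Ccn1. Nr4a1 differed by 0.70 at 18 µg and by -1.46 at 162 µg, and Hsph1 by -0.75 and 0.71, so that both changed sign with dose.

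**Figure D4:**
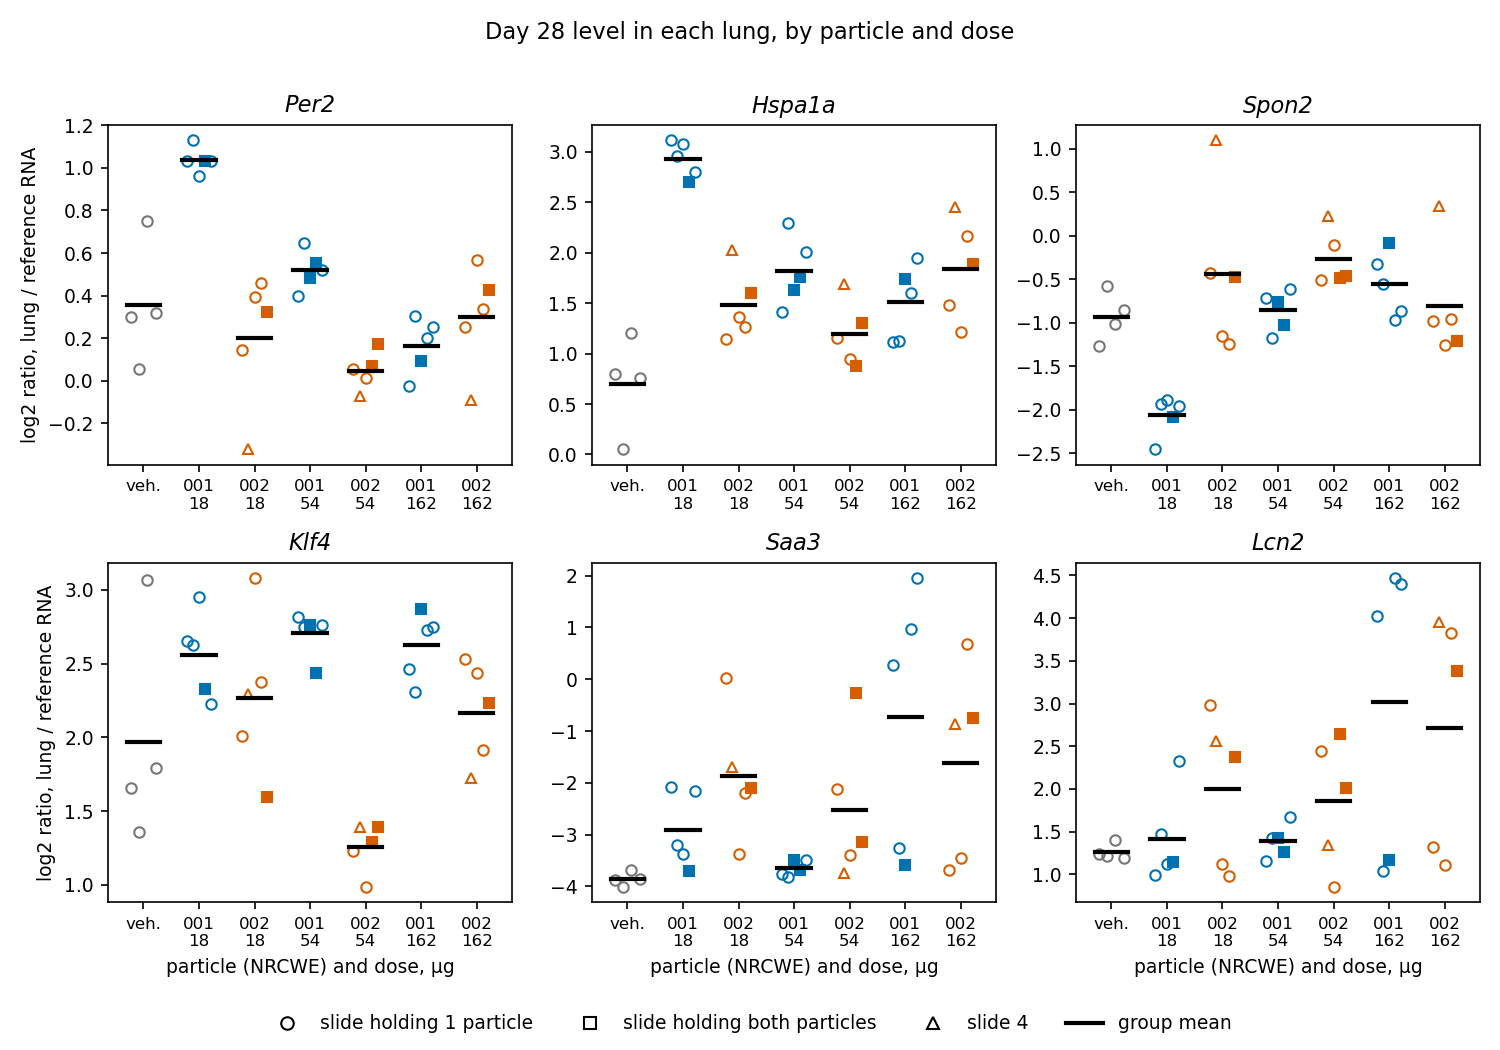
Log2 ratio of lung over reference RNA (y axis) in vehicle lungs and in lungs given 18, 54 or 162 µg of each particle (x axis) for Per2, Hspa1a, Spon2, Klf4, Saa3 and Lcn2, 1 point per mouse, with 5 per particle and dose and 4 vehicles. For Per2, Hspa1a and Spon2 the 18 µg NRCWE 001 lungs stand apart from all others, and for Klf4 the 54 µg NRCWE 002 lungs stand apart from the 54 µg NRCWE 001 lungs.

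Among the inflammatory lists Ccr2 alone was called over the 30 arrays, and on the slides that held both particles more members had a low unadjusted p, those of the acute phase list all higher after NRCWE 002. Of the 19 measured acute phase genes none had an unadjusted limma p below 0.05 over all arrays (median difference 0.09), whereas within slides 10 were higher at that p and none lower, against 3.36% of all genes, with a median of 0.37. On the 22 arrays of single-particle slides none was higher and 2 were lower (median -0.11), against 7.68% higher and 13.2% lower of all genes. No gene passed adjustment within slides. Saa3, the serum amyloid made in the lung itself, was -3.81 to 1.95 with NRCWE 001 (median -3.37) and -3.74 to 0.67 with NRCWE 002 (median -2.12), and its vehicle lungs were at -3.88, -4.01, -3.68 and -3.86. Its matched pairs were 1.59, 3.23, 0.54 and 2.83, all higher with NRCWE 002, and the difference was 2.05 within slides (limma adjusted p = 0.521), 0.42 over all arrays (limma adjusted p = 0.697) and -0.17 over the single-particle slides. On those slides 3 lungs given 162 µg of NRCWE 001 held the values 0.28, 0.98 and 1.95, the last being the highest Saa3 value of day 28. Lcn2, which binds bacterial siderophores, had pairs of 1.23, 1.22, 0.75 and 2.21 and a difference of 0.25 over all arrays (limma adjusted p = 0.727).

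Chemokine, macrophage and cell cycle lists also had more higher members within slides than over all arrays, and not on the single-particle slides. Of all genes 3.36% were higher within slides, 6.17% over all arrays and 7.68% on the single-particle slides. The shares lower were 3.85%, 11.3% and 13.2%. Of 20 measured CC chemokine genes and receptors, 1 was higher at an unadjusted limma p below 0.05 over all arrays, Ccr2, and 6 within slides, with medians of 0.17 and 0.47, and 1 on the single-particle slides (median 0.05). The monocyte chemokine Ccl8 differed by 1.85 and Ccl9 by 1.18 within slides. Among 21 macrophage markers 7 were higher and 1 lower within slides, and on the single-particle slides none was higher and 1 lower. Among 26 cell cycle genes 8 were higher and none lower within slides, while 6 were higher and 4 lower over all arrays and 3 higher and 6 lower on the single-particle slides. The lists of the study drawn from lung disease models followed, with 9 of 17 higher within slides for Bicluster 1 (acute phase and macrophage genes), 8 of 16 for Bicluster 3 (chemokines) and 7 of 17 for Bicluster 7 (fibrosis models), while over all 30 arrays none, none and 1 were. On the single-particle slides none of the members of these lists was higher, and 3, 1 and 4 were lower (medians -0.12, 0.06 and -0.14), so the direction of Biclusters 1 and 7 differed between the 2 sets of arrays. Of the 16 measured genes of Bicluster 10, which fell in lung disease, none was higher and 5 were lower within slides (3.85% of all genes were lower), while over all arrays 2 were higher and none lower, and on the single-particle slides 3 were higher and none lower (medians 0.04 and 0.16). Of 16 endothelial markers 6 were lower and none higher within slides, Ednrb by -0.42 and Pecam1 by -0.24 among them, but over all arrays 1 was higher and none lower, with a median of 0.13, and on the single-particle slides 4 were higher and none lower, with a median of 0.24.

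These within-slide counts rest on 8 lungs, and 1 of them differed from the rest in liver transcripts. In the lung given 54 µg of NRCWE 002 on slide 15 (replicate 5), the mean of 11 hepatocyte markers was 3.29, against 0.14 to 0.93 in the other day 28 lungs, and Alb was 4.72, against 0.19 to 2.41. Without it the acute phase count fell to 6 of 19, with a median of 0.22, and the B and T cell counts to 2 each, from 5 and 6. The macrophage count was then 10 of 21, the CC chemokine count 10 of 20, the cell cycle count 13 of 26, and the counts of Biclusters 1, 3 and 7 were 12, 7 and 8, against 3.87% of all genes. The part of that lung's liver transcripts in the remaining results was not tested.

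Markers of other tissues that a piece of lung can hold varied between lungs. Of 16 adipocyte markers 4 were higher after NRCWE 002 at an unadjusted limma p below 0.05 and none lower, against 6.17% of all genes higher, with medians of 0.29 over all arrays, 0.00 within slides and 0.30 between the vehicle slide sets. Without slide 4, 8 of the 16 were higher at that p. The share of all genes is not given for the fit without slide 4, so that count cannot be read as an excess. The mean log2 ratio of the 16 markers was 0.65 to 1.90 with NRCWE 001, 0.69 to 3.45 with NRCWE 002 and 0.80 to 1.88 with vehicle. The mean of 10 skeletal muscle markers was -1.16 to -0.43 with NRCWE 001 and -1.18 to 4.14 with NRCWE 002, the highest in the lung given 18 µg on slide 2, and 1 of the 10 was higher at an unadjusted limma p below 0.05. The part of these tissues in the results was not tested. The 21 cardiac muscle markers were higher after NRCWE 002 by a median of 0.65, 1 of them at an unadjusted limma p below 0.05, and the vehicle slide sets differed by 1.06 (-0.13 to 1.97 leaving out each vehicle lung in turn) and the matched slides by 0.03. Their mean log2 ratio ranged from -0.26 to 2.60 with NRCWE 001, from -0.28 to 3.07 with NRCWE 002 and from -0.08 to 2.01 with vehicle, and 13 of the 21 were above background on every array. Airway secretory markers had medians of 0.49 over all arrays, 0.62 within slides and 0.62 between the vehicle slide sets, with no gene at an unadjusted limma p below 0.05 over all arrays. Interferon-stimulated genes had a median of 0.21 with none of 24 past an unadjusted limma p of 0.05 over all arrays, and 0.48 within slides, where again none passed.

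The immediate early, heat shock and clock lists held larger shares of lower members than the whole table, in which 11.3% of genes were lower over all arrays and 3.85% within slides. Of 21 immediate early genes 5 were lower and 1 higher at an unadjusted limma p below 0.05, with Nr4a2 and Klf4 called. Their median difference over all arrays was -0.09, and 9 of the 21 were above 0. Within slides 6 were lower and none higher, while the vehicle slide sets had a median of -0.37 (-0.52 to -0.06 leaving out each vehicle lung in turn). The matched pairs of Egr1 were 0.89, 0.81, 0.89 and -1.15. Those of Fos were 0.28, 0.18, 0.71 and -0.10, so both were mostly higher with NRCWE 002. Of 20 heat shock genes 5 were lower and 1 higher, with none called over the 3 doses together. Within slides 4 heat shock genes were lower and 1 higher. Without the lung rich in liver transcripts these counts were 1 lower and 2 higher, so the within-slide count of lower heat shock genes depended on that lung. Of 18 clock genes 4 were lower and 2 higher, and within slides 4 were lower and none higher. Without that lung 3 clock genes and 7 immediate early genes were lower within slides, and none of either list was higher. The share of all genes lower is not given for the fit without that lung, so its lower counts cannot be read as an excess. Of 36 proteasome genes 7 were lower over all arrays, against 11.3% of all genes, and none was lower within slides. Of 60 cytosolic ribosomal protein genes 4 were higher and 3 lower, with a median of 0.02, and of 51 oxidative phosphorylation genes none was higher and 4 were lower.

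**Figure D5:**
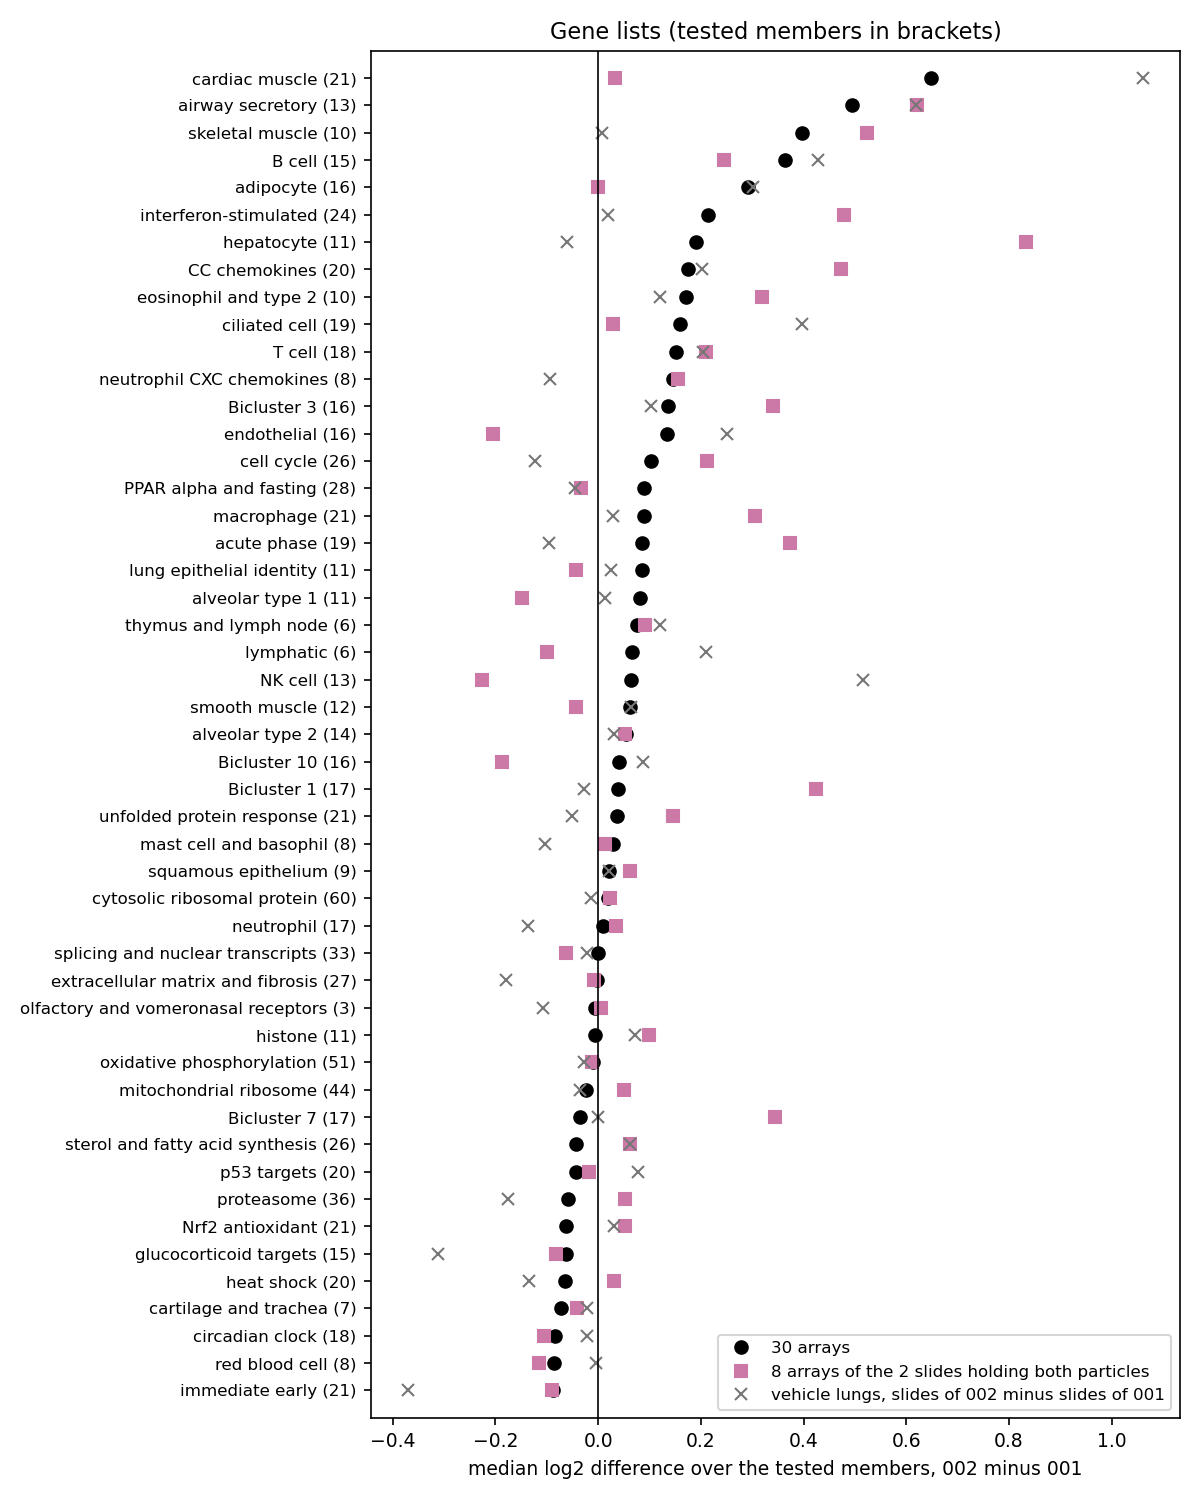
Median log2 difference (x axis) of NRCWE 002 minus NRCWE 001 over the measured genes of each of 49 lists (y axis), for the 30 arrays and for the slides holding both particles, with the median difference between vehicle lungs of the 2 sets of slides. Acute phase, CC chemokine and Bicluster 1, 3 and 7 lists lie further to the right within slides than over the 30 arrays, and the cardiac muscle list lies furthest to the right for the vehicle lungs.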

How the data were processed

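Lung RNA of individual mice was labelled with Cy5 and hybridised with Cy3-labelled reference RNA on 2-colour Agilent arrays, without dye swap, so a dye effect of a gene enters every array alike. The deposited series table holds, per the authors, LOWESS-normalised log2 ratios of lung over reference for 41174 probes, and the deposited scanner files (Agilent Feature Extraction 11.0.1.1) hold the spot intensity of each channel. The direction of the ratio was checked against those intensities (r = 0.988 to 0.995 per array). The table's background correction is not given in the sources used here. Its values correlated more closely with ratios made without background correction (r = 0.995 to 0.999).

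Groups came from the array titles. Gene symbols were taken from RefSeq through the transcript accessions in the array files, which gave a symbol to 27479 probes. Probes were kept where the sample channel was well above background on at least 5 of the 30 arrays. The probes of one symbol were summarised by their median on each array. This left 15755 genes, 10149 of them with 1 probe. Models were fitted with limma 3.58.1 in R 4.3.3 with particle and dose as factors, Benjamini-Hochberg adjustment over all genes and a threshold of 0.05, after a test on simulated data. Slide was read from the scanner file names and entered as a random block (consensus correlation 0.588), as a fixed block, or by use of the slides holding both particles. Slide numbers are running numbers of this work. The day in the scanner file names, taken as the day of scanning, was a further block. The number of arrays limits the precision. In the fits without slide, the p-values rest on a spread that mixes mice and slides. Those fits treat lungs on the same slide as independent. With slide fixed, the p-values rest on the spread between mice within slides, and the particle difference comes from the slides holding both particles.

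Members and gene lists were chosen with earlier results of these data known. Named genes were the 6 largest differences in each direction among called genes, the genes called with slide as a block, the called members of each list with the smallest p (up to 2), and Lars2. The other genes given with values were chosen after their values were seen. Of 935 listed symbols, 18 were matched through RefSeq synonyms and 89 were not tested. Promoter sequences are from RefSeq (GRCm38.p6). Alternatives covered the background correction, normalisation, filters, summary of probes, dose coding, blocks, array weights and left-out arrays and slides.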

Additional observations from a re-analysis of the deposited data

Results flagged for a closer look

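Values of single lungs that stood apart from the other 4 of their group were found in 13 of the 119 groups tested (17 genes in 7 groups), where chance gives about 1 in 20 groups. Slide 4 held 7 of the 13. Lars2 was 6.49 at 162 µg, 6.41 at 18 µg and 6.37 at 54 µg of NRCWE 002, above nearest values of 2.15, 2.05 and 2.19. On the same slide Coq10b was -1.03 at 162 µg and -1.08 at 54 µg of NRCWE 002, below nearest values of 0.03 and -0.10. Foxp1 was 2.25 and Per1 0.80 in the slide 4 lung given 54 µg of NRCWE 002, above 1.75 and -0.42.

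The others were spread over slides. Cyp51 was -0.66 in replicate 1 of 54 µg NRCWE 001 on slide 6, above a nearest value of -1.12, and -1.03 in replicate 5 of 18 µg NRCWE 002 on slide 13, above -1.37. Klf4 was 2.44 in replicate 4 of 54 µg NRCWE 001, below 2.75. Rgs18 was 1.70 in replicate 2 of 18 µg NRCWE 001, above 1.32, and 2.06 in replicate 1 of 54 µg NRCWE 002, above 1.82. Srf was -0.24 in replicate 4 of 18 µg NRCWE 002 on slide 10, below 0.02.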

How the results depend on the processing

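The count of 56 genes for the particle difference was 1 with slide as a random block, 6 with that block and without slide 4, and 0 with slide fixed, slide fixed with vehicle arrays added, scan day fixed, scan day random or the slides holding both particles alone. It was 478 on single-particle slides and 1159 over all 69 arrays. It was 24 without background correction (37.5% higher, against 26.8% in the main comparison), 20 with processed signals (15% higher), 44 with normexp (47.7% higher) and 2357 with median centring (3.9% higher), which moved the median difference of all genes from -0.01 to -0.11. It was 121 with no filter, 98 without dose and 206 with array weights. Leaving out slides 2, 6, 7, 10, 13, 15 and 18 in turn gave 37, 2, 30, 3, 149, 195 and 13. Leaving out each array gave 26 to 260, lowest without replicate 1 of 54 µg NRCWE 001 and highest without replicate 5 of 18 µg NRCWE 002. The cause was not tested.

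The 10 calls at 18 µg became 20 with slide random, 0 with slide fixed, 2 with scan day fixed, 27 over 69 arrays, 4 with normexp, without background correction or with processed signals, and 48 with array weights (4 to 14 leaving out each array). The 1 call at 54 µg became 6 with slide random, 2 with slide fixed, 0 with slide fixed and vehicles or scan day fixed, 2 with scan day random, 6 over 69 arrays, 2 with normexp, without background correction or with the brightest probe, 31 with array weights and 7 without slide 4 (1 to 2 leaving out each array). The 0 calls at 162 µg became 3 with array weights (0 to 1). The 0 calls for the change with dose became 27 with slide random, 5 with slide fixed, with or without vehicles, 4 with scan day fixed, 23 with scan day random, 5 over 69 arrays, 18 with array weights and 4 without slide 4 (0 to 2). Within slides the count stayed at 0 for each left-out array, against 755 to 1280 genes unadjusted in limma.

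The slide share of 69.3% was 65.4% with processed signals, 73.9% with median centring, 71.7% with both channels above background and 58.0% without slide 4 (66.7 to 72.6% leaving out each array). Creld2 turned to -0.062 with median centring. Cyp51 turned to 0.034 with slide fixed or on slides holding both particles and 0.037 with scan day fixed. Lars2 turned to -0.074 with slide fixed or on slides holding both particles, to -0.070 with slide fixed and vehicles, and to -0.107 with scan day fixed. Alternatives by slide, single-array omissions within slides those of vehicle lungs and those of the slide share were chosen after seeing the data. Lungs were paired by slide on slides 13 and 15. By replicate number, no paired analysis was possible because the labels carry no such number.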
